A study of Mus musculus with 6 samples.

Results

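The Bcl2 family decides whether a cell opens its mitochondria and dies. Its protective proteins hold back a pair of pore-forming proteins, Bax and Bak, and the BH3-only proteins carry death signals by binding the protectors or the pore formers. In the ovary this balance is known for setting how many oocytes survive, and Bcl2l10, also called Diva or Boo in the mouse, is known for its expression in the ovary. The family was followed here through 10 genes. These were Bcl2l10, the protective genes Bcl2, Bcl2l1 and Mcl1, the pore formers Bax and Bak1, and the BH3-only genes Bid, Bcl2l11, Bbc3 and Pmaip1. A gene was taken where a probe of the array carried its symbol and no other. Of the 10 genes, 8 had such a probe, with 9 probes in all because Bcl2 had 2, out of 13840 genes with a single symbol and 33012 probes on the array. Bax and Bak1 had none and are not analysed here.

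Each chemiluminescent array measured amplified cDNA of a single oocyte. The arrays set 3 Ago2-deficient mature oocytes against 3 wild-type germinal vesicle (GV) oocytes, a GV oocyte being one still arrested before the first meiotic division. The question here was which transcripts differ between these groups. The paper sought genes downstream of Ago2, the slicing Argonaute protein, by a comparison with wild-type controls, and its heat map includes wild-type mature oocytes. No wild-type mature oocyte is among the 6 arrays used here. The Ago2-deficient oocytes came from [Ago2F/F, Zp3-Cre] females, in which the promoter of the zona gene Zp3 drives Cre only in growing oocytes, so the follicle cells keep Ago2. The paper describes its mature oocytes as ovulated metaphase II cells of adult females, and the labels give adult females for the GV oocytes too. Strain and exact age are not given in the sources used here, nor whether the oocytes of a group came from separate animals, so the spread behind each p-value is that of these 6 oocytes and may be partly technical. Genotype and stage differ together between the groups and cannot be told apart. The labels say that the GV oocytes came from oviducts, where GV oocytes are not usually found, and the stage is named here as labelled.

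Fewer probes were detected on the Ago2-deficient arrays. Detection was set at a signal-to-noise ratio (S/N) of 3 or more. By it, 4620 to 6798 probes were detected on the Ago2-deficient arrays against 10650 to 11334 on the GV arrays, while the median signal of undetected probes was 145 to 231 on Ago2-deficient and 70.8 to 83.3 on GV arrays. The Ago2 probe itself was detected on 0 of 3 Ago2-deficient and 1 of 3 GV arrays, and since no source used here places it inside or outside the deleted exons it is no check of the genotype. Oocyte markers were present in both groups, with 11 of the 17 on the array detected on all 6 arrays and 1, Sohlh1, detected on none. Of the 15 tested, 11 were lower in Ago2-deficient oocytes and 0 higher (limma, median log2 difference -2.29). Of all tested genes, 44.8% were lower and 17.4% higher, with a median of -1.39. Under the alternatives 8 to 15 markers were lower. Those fits tested 15 markers, but 17 with no filter and 11 among probes detected on all 6 arrays. Zp2, Figla and Kit were detected on all 3 GV arrays and on no Ago2-deficient array. The same held for 34.7% of all genes with a symbol that all 3 GV arrays detected.

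Only 2 of the 8 family genes, Bcl2l1 and Bcl2l10, gave a signal that could be compared between the groups. Both were detected on all 6 arrays, as were 10.1% of all genes with a symbol. Bcl2l10 was lower in the Ago2-deficient oocytes, at 18.84 ± 0.58 against 20.72 ± 0.20 on the log2 scale in the GV oocytes (SD, n = 3), and the values of Bcl2l1 overlapped. Bcl2, Mcl1, Bcl2l11 and Pmaip1 were each detected on 1 or 2 arrays, and Bid and Bbc3 on none, where 54.4% of all genes with a symbol were detected on 1 to 5 arrays and 35.5% on no array. To be tested, a probe had to be detected throughout 1 group or the other, which 33.0% of genes with a symbol did, and which Bcl2l1 and Bcl2l10 did through both groups. Of the 4464 genes with a symbol that were detected on all 3 GV arrays, 34.7% were detected on no Ago2-deficient array, and neither family gene was among these. The other 6 family genes were not tested, and their values are given as a description.

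**Figure D1:**
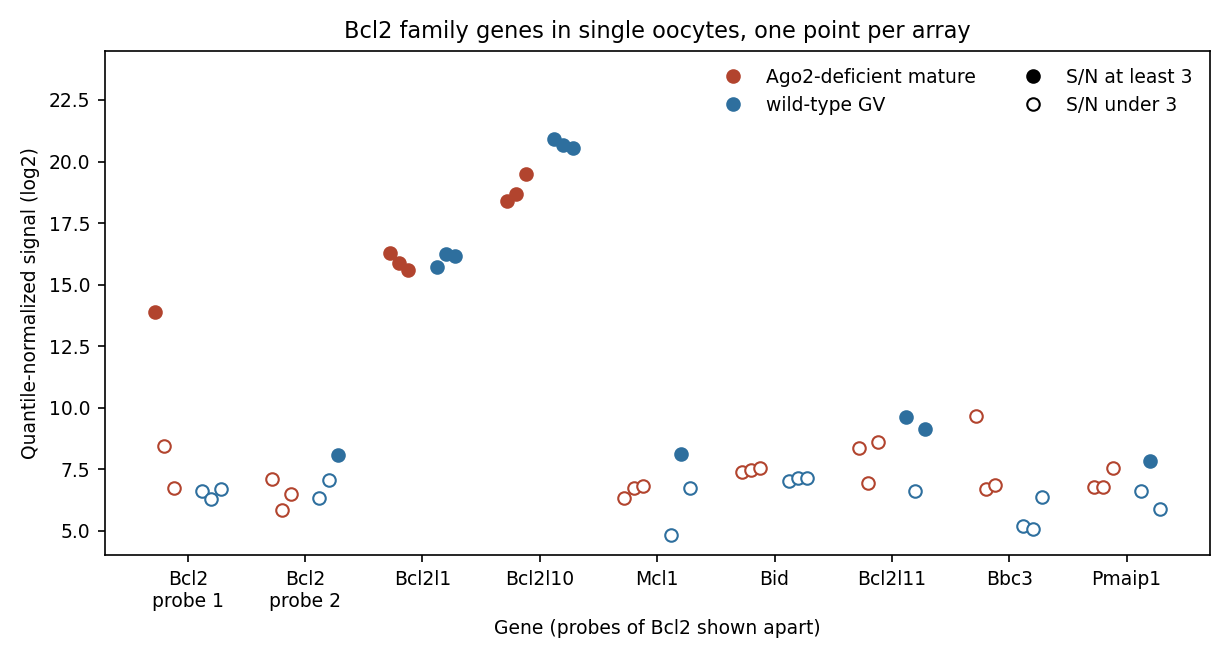
Quantile-normalized log2 signal (vertical axis) of the 9 probes of 8 Bcl2 family genes (horizontal axis), with 3 Ago2-deficient mature oocytes on the left and 3 wild-type GV oocytes on the right of each probe; each circle is an array, filled at S/N of at least 3. Only Bcl2l1 and Bcl2l10 are filled throughout, and for Bcl2l10 the highest Ago2-deficient value, 19.49, lies below the lowest GV value, 20.54.

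Bcl2l10 was bright on every array. On the authors' quantile-normalized log2 scale, which ran from 4.25 to 21.22 with a median of 7.25 on these arrays, it read 18.38, 18.66 and 19.49 in Ago2-deficient oocytes and 20.93, 20.69 and 20.54 in GV oocytes. Every Ago2-deficient oocyte lay below every GV oocyte, and the Ago2-deficient oocytes were the more spread. The means gave a log2 difference, Ago2-deficient minus GV, of -1.88 (standard error 0.40, 95% interval -2.82 to -0.93), or 3.67-fold lower (limma, adjusted p = 0.00607). The signal before any scaling was 131196, 540844 and 621940 on the Ago2-deficient arrays and 2113116, 1823201 and 1708742 on the GV arrays, where the brightest probe of each array read between 2114797 and 2789560. The GV signals thus lay near the brightest signals of these arrays, and the part of this in the size of the difference was not tested.

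Calls required a fold over 2 and an adjusted p under 0.05. Bcl2l10 was the only one of the 2 tested family genes to be called. Of all 7915 genes tested, a probe with no single symbol counting as a gene of its own, 62.2% were called, 17.4% higher and 44.8% lower, and in 70.4% the groups did not overlap. The median log2 difference of all tested genes was -1.39, and Bcl2l10 stood at -0.49 relative to it. This background turned with the filter. Among the 2497 genes detected on all 6 arrays, as both family genes were, 1128 were higher and 543 lower with a median of 0.83, and Bcl2l10 stood at -2.71 relative to that. The median for the tested oocyte markers was -2.29, beside -1.88 for Bcl2l10, and the part of a wider difference in oocyte transcripts in the Bcl2l10 value was not tested.

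Bcl2l1 encodes Bcl-xL, a guardian of the mitochondrial outer membrane, and by splicing a shorter form that promotes death, which this array's annotation does not separate. It read 16.30, 15.88 and 15.59 in Ago2-deficient oocytes and 15.72, 16.26 and 16.17 in GV oocytes. The groups overlapped, with the highest and the lowest of the 6 values both in Ago2-deficient oocytes. The means were 15.92 ± 0.36 and 16.05 ± 0.29 (SD, n = 3 arrays in each group), and the log2 difference was -0.13 (standard error 0.35, limma, adjusted p = 0.765). Its 95% interval, -0.98 to 0.72, leaves room for a change of almost 2-fold down. Relative to the median log2 difference Bcl2l1 stood at 1.26 over all tested genes, but at -0.96 over those detected on all 6 arrays and at -0.26 with no filter.

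The call of Bcl2l10 held in every fit tried, whereas that of Bcl2l1 depended on how the arrays were brought to a common scale. With arrays scaled to a common median the log2 difference of Bcl2l1 was -2.82 (limma, adjusted p = 0.000229) and with no scaling it was -1.72 (adjusted p = 0.0118), both called lower. With cyclic loess, which fits a curve between pairs of arrays, it was -0.20 (adjusted p = 0.691), and centring each array on the probes that all 6 arrays detected gave -0.61 (adjusted p = 0.217). For Bcl2l10 the same 4 scalings gave log2 differences of -3.51, -2.41, -2.18 and -1.30, all called lower. The scalings also moved the median of all tested genes, which was -3.08 with a common median, -1.97 without scaling, -0.36 with cyclic loess and -0.86 with centring. With the filter kept, Bcl2l1 stood above that median, at 0.26 with a common median, without scaling and with centring, and at 0.15 with cyclic loess. Bcl2l10 stood below it, at -0.43 in those 3 cases and at -1.82 with cyclic loess. Those 3 cases must give the same value, since they only shift each array as a whole, and they count as 1 comparison. The split of all called genes was 1378 higher and 3543 lower after quantile normalization. A common median gave 312 and 6220, unscaled signals gave 611 and 4774, cyclic loess gave 1955 and 2510 and centring gave 1304 and 3140.

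**Figure D2:**
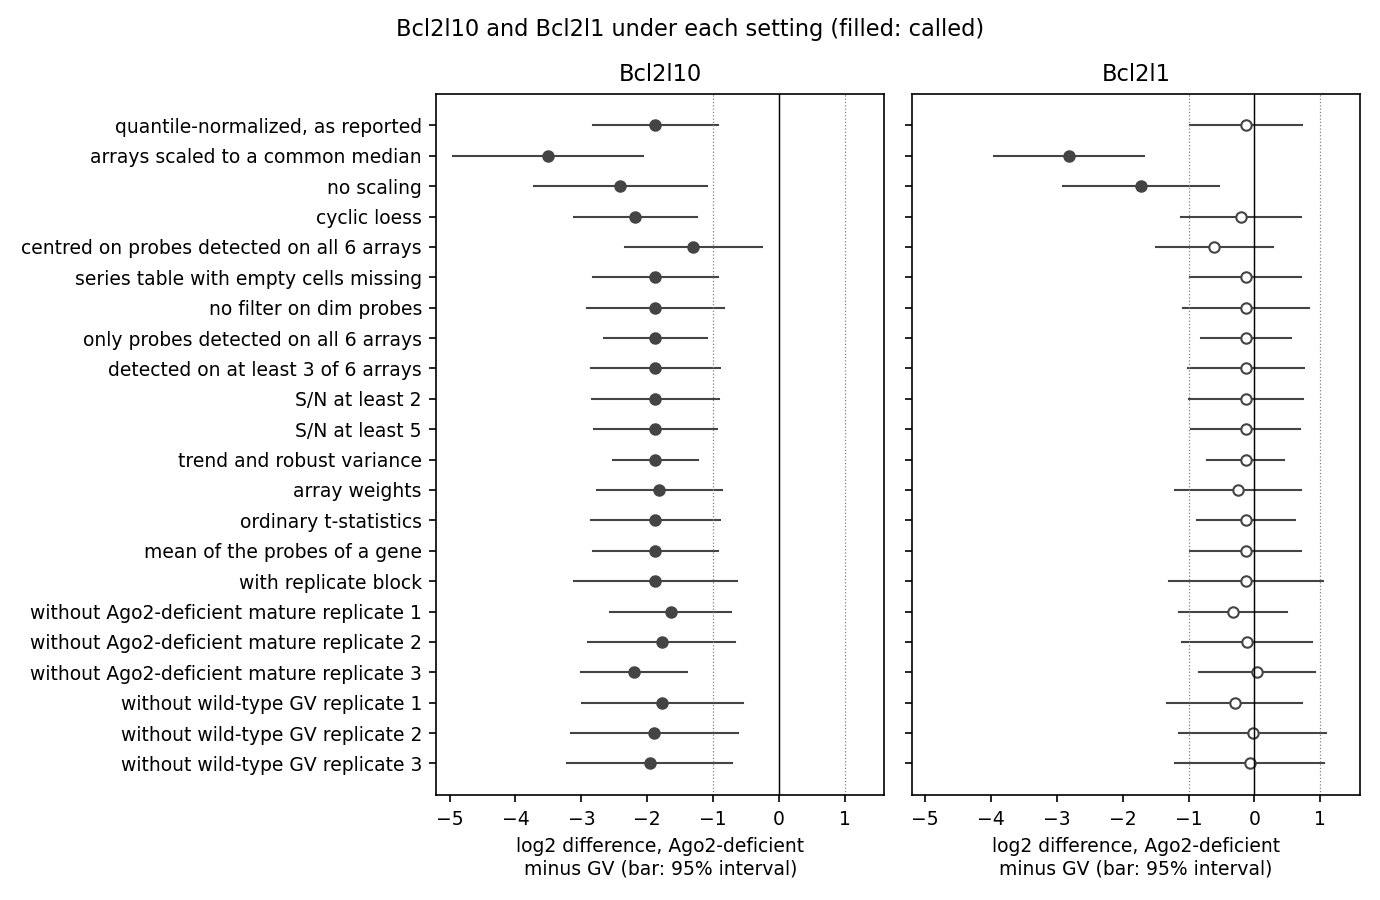
Log2 difference of Bcl2l10 (left) and Bcl2l1 (right) between Ago2-deficient mature and GV oocytes (horizontal axis, positive where Ago2-deficient is the higher), under each way of processing the arrays (rows); points are estimates, bars are 95% intervals, filled points are called and dotted lines mark a 2-fold change. Bcl2l10 is filled in every row, from -3.51 to -1.30, and Bcl2l1 is filled only with a common median (-2.82) and with no scaling (-1.72).

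Bcl2l10 and Bcl2l1 were also set against each other on the same array, which cancels any factor common to that array. This contrast was chosen after the values were seen. On the quantile-normalized scale Bcl2l10 exceeded Bcl2l1 by 2.08, 2.78 and 3.91 in Ago2-deficient oocytes and by 5.21, 4.42 and 4.37 in GV oocytes, which did not overlap. With means of 2.92 ± 0.92 and 4.67 ± 0.47 (SD, n = 3), an exact two-sided permutation test gave p = 0.1, and groups of this size can give none smaller. On the signal before scaling, the same difference was 2.27, 3.18 and 4.48 in Ago2-deficient and 4.32, 3.79 and 3.89 in GV oocytes. There the groups overlapped, since Ago2-deficient replicate 3 had the highest value of all, and the means of 3.31 ± 1.11 and 4.0 ± 0.28 (SD, n = 3) differed by less than the spread of the Ago2-deficient oocytes (p = 0.4 by the same exact test). With 3 arrays in a group this exact test cannot reach the 0.05 level, so it does not decide on the contrast.

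**Figure D3:**
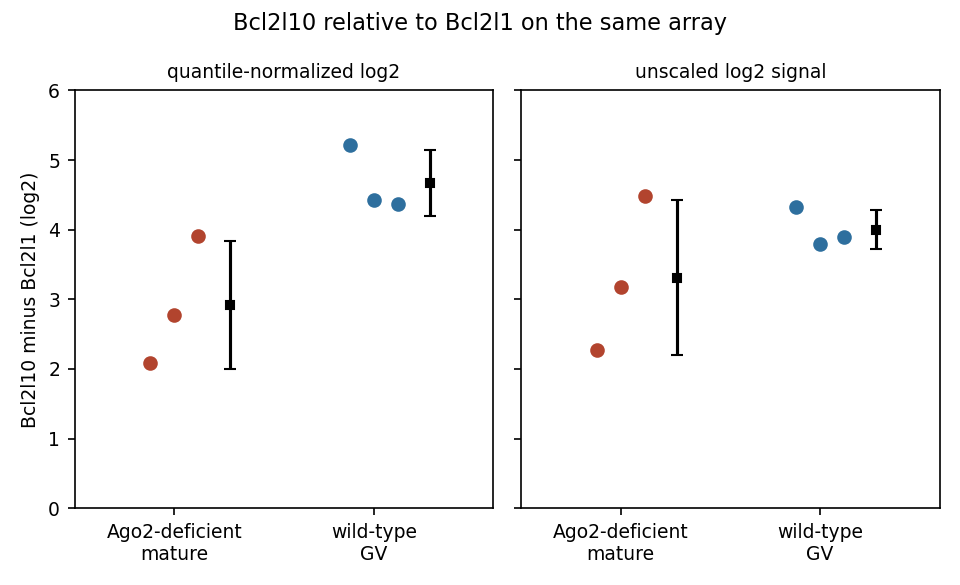
Bcl2l10 minus Bcl2l1 on the same array (vertical axis, log2), with Ago2-deficient mature oocytes left of GV oocytes, from the quantile-normalized values (left) and the unscaled signal (right); each circle stands for an array, and the squares with bars show mean and SD (n = 3). The groups are apart on the left (at most 3.91 against at least 4.37) and overlap on the right.

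The protective genes Bcl2 and Mcl1 were mostly at or near background. Bcl2, the founding member of the family, was read by 2 probes that did not agree. The first gave 13.90, 8.45 and 6.75 in Ago2-deficient oocytes, detected only in replicate 1 (S/N 9.78, signal 4137), against 6.61, 6.30 and 6.71 in the GV oocytes, where it was not detected. The second gave 7.12, 5.86 and 6.51 in Ago2-deficient oocytes, all undetected, and 6.31, 7.06 and 8.06 in the GV oocytes, detected only in replicate 3 (S/N 4.05). So the only clear Bcl2 signal came from 1 probe in 1 oocyte, on the array with the fewest detected probes, and its second probe there had an S/N of 0.25. Mcl1, a short-lived protector on which oocyte survival depends in mice, read 6.34, 6.73 and 6.82 in Ago2-deficient oocytes and 4.82, 8.10 and 6.72 in GV oocytes. Its 1 detected value, in GV replicate 2, had an S/N of 3.03, at the edge of the limit.

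Among the BH3-only genes, Bcl2l11, which encodes Bim, was detected on 2 GV arrays and Pmaip1 on 1. Neither was detected on an Ago2-deficient array, and the GV arrays detected more probes in all. Bcl2l11 read 8.38, 6.94 and 8.62 in Ago2-deficient oocytes, with S/N of at most 1.94, and 9.61, 6.61 and 9.14 in the GV oocytes. GV replicates 1 and 3 were well above the limit, with S/N of 21.23 and 11.11, while GV replicate 2 was at background (S/N -1.06), so the groups overlapped and the gene was not tested. The difference of the means was -0.48.

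Some markers of cumulus and granulosa cells, the follicle cells around the oocyte, were detected on every array. Of 16 on the array, 2, 5 and 5 were detected in Ago2-deficient oocytes and 6, 4 and 5 in GV oocytes, and 4 (Fshr, Amh, Has2 and Tnfaip6) on no array. Their summed normalized signal on the linear scale was 14800 to 40700 on Ago2-deficient arrays, most of it from the growth factor genes Btc and Ereg, and 5230 to 7730 on GV arrays. Btc and Ereg were detected on all 3 Ago2-deficient arrays and on no GV array. Of the 5 markers tested, these 2 were higher and the other 3 lower. Of all tested genes, 17.4% were higher and 44.8% lower. Inhba, an activin subunit gene of granulosa cells, had S/N of 0.84, 0.91 and 3.47 in Ago2-deficient oocytes and 36.72, 0.61 and 18.09 in GV oocytes, so its 2 strong GV arrays were the 2 that showed Bcl2l11. Other granulosa genes differed in their order. Inha had S/N of 0.39, 0.29 and 2.57 in Ago2-deficient and 19.24, 44.83 and 9.97 in GV oocytes. Amhr2 had 0.30, 0.42 and 8.30 in Ago2-deficient and 8.39, 21.07 and -4.25 in GV oocytes. Hsd17b1, undetected in Ago2-deficient oocytes, had 20.82, 8.45 and 10.26 in GV oocytes, the same order as Bcl2l11. Nr5a2 had 0.18, 14.74 and -2.92 in Ago2-deficient and 32.84, 19.6 and 16.54 in GV oocytes. Inha and Amhr2 were strongest in GV replicate 2, where Bcl2l11 was at background, and Inhba was singled out after the values were seen. Of 15 markers of other ovarian, oviduct and blood cells on the array, 8 were detected nowhere. On the single arrays, 1, 2 and 1 were detected in Ago2-deficient oocytes and 5, 4 and 6 in GV oocytes. Their summed signal went the other way, at 215000 to 454000 on Ago2-deficient and 89000 to 116000 on GV arrays. Most of it came from 1 gene, the keratin gene Krt8, which was detected on all 6 arrays. The part of RNA from other cells in the Bcl2l11 signal was not tested.

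The remaining BH3-only genes gave no signal, or one at the limit. Bid, which caspase 8 cuts into its active form, had values of 7.40, 7.46 and 7.54 in Ago2-deficient oocytes and 7.03, 7.15 and 7.14 in GV oocytes. The groups did not overlap, yet the highest S/N was 1.92, so these values are not above background. Of all tested genes, 70.4% were without overlap, and no such share was taken over undetected probes. Before scaling, the median signal of undetected probes was higher on the Ago2-deficient arrays (145 to 231 against 70.8 to 83.3). The part of this in the normalized Bid values was not tested. Bbc3, which encodes Puma, had 9.65, 6.69 and 6.84 in Ago2-deficient oocytes and 5.18, 5.07 and 6.38 in GV oocytes, also without overlap and also undetected throughout, with a highest S/N of 1.93 on Ago2-deficient replicate 1. Pmaip1, which encodes Noxa, had 6.77, 6.77 and 7.55 in Ago2-deficient oocytes and 6.61, 7.84 and 5.87 in GV oocytes, with 1 detection at an S/N of 3.26 in GV replicate 2. Puma and Noxa are known for executing the death of mouse oocytes after DNA damage. With every probe on the array fitted, 0 of the 7 probes of these 6 genes were called (limma, adjusted p = 0.152 to 0.96), and 1, that of Bbc3, had an unadjusted p under 0.05. These probes do not show the genes to be silent, since a level under the detection limit cannot be told from none.

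Few genes shared the pattern of Bcl2l1 over the 6 arrays, and many shared that of Bcl2l10. The named genes closest to Bcl2l1 were Mllt1, Slc6a9 and Lsm2 (Pearson r = 0.955, 0.951 and 0.949 over 6 arrays), and 2 genes with a symbol exceeded 0.95. Closest to Bcl2l10 were Med7, Psmb7 and Nlrp2 (r = 0.999, 0.999 and 0.997), and 627 genes exceeded 0.95. The tested genes with a symbol numbered 4568. Psmb7, a proteasome subunit, read 6.73, 7.88 and 10.62 in Ago2-deficient oocytes and 16.17, 15.78 and 15.06 in GV oocytes, a log2 difference of -7.26. For Bcl2l1 the neighbours differed little between the groups in the case of Lsm2 (-0.06) and more in that of Mllt1 (-0.99). All points share the 2 groups and the normalization, and these r are a description. With 62.2% of all tested genes called, many neighbours were likely in advance for a gene that differs between the groups.

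Other genes of the apoptosis pathway were taken from 5 lists with 57 genes on the array, of which 22 were tested. Of these 2 were higher, 10 were lower and 10 were not called, with a median log2 difference of -0.80 beside -1.39 for all tested genes, of which 62.2% were called and 44.8% lower. Scaling to a common median made the split 1 higher and 17 lower, leaving out scaling 1 and 15, cyclic loess 5 and 10, and centring 3 and 12. In each called gene the values of the groups did not overlap, which the limits for a call make likely in advance. Of the 10 genes not called, only Daxx was without overlap. Over all tested genes, called or not, the share without overlap was 70.4%.

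Further Bcl2 relatives held 2 lower genes among 4 tested, where 44.8% of all tested genes were lower. Bik, a BH3-only gene, read 7.61, 6.27 and 6.43 in Ago2-deficient oocytes, not well above background in any, against 10.90, 11.05 and 10.71 in GV oocytes. It was at least 17.3-fold lower (limma, adjusted p = 0.000442), a bound that takes for each Ago2-deficient array either the probe's own value or the lowest that any detected probe had there, whichever is larger. Here and below, "at least" describes the values read and sets no limit on the transcript, since undetected probes could read much higher. The dimmer probe of Cycs, for example, read 10.37 in Ago2-deficient replicate 2 while undetected (S/N -0.13). Bnip3l, a receptor for the removal of mitochondria, was at least 37.3-fold lower by its brighter probe (limma, adjusted p = 0.000447; log2 difference -5.50, or -4.86 without Ago2-deficient replicate 2), but its other tested probe, detected in 1 Ago2-deficient oocyte, differed by -1.04 and was not called. Bok, a pore-forming relative of Bax, differed by 0.69 and was not called (adjusted p = 0.341), although without Ago2-deficient replicate 3 it was called at 1.35 and under cyclic loess at 1.73. Bcl2l13, a mitophagy receptor, differed by 0.14 (adjusted p = 0.889) and was called at 1.59 with centring.

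Of 8 tested genes that act at the mitochondrion downstream of the family, 2 were higher and 3 lower. Of all tested genes, 17.4% were higher and 44.8% lower. The voltage-dependent anion channels of the outer membrane divided. Vdac1 read 9.96, 12.52 and 12.72 in Ago2-deficient oocytes and 5.93, 6.30 and 6.44 in GV oocytes, where it was not well above background, and was at least 35.7-fold higher (limma, adjusted p = 0.00106; 66.0-fold without Ago2-deficient replicate 1). Vdac3 read 7.09, 7.39 and 10.12 in Ago2-deficient oocytes, detected only in replicate 3, and 15.30, 14.77 and 14.44 in GV oocytes, a log2 difference of -6.64 (limma, adjusted p = 0.000728), and without that oocyte it was at least 194-fold lower. Vdac2, which holds Bak inactive at the membrane, differed by -0.15 and was not called on the normalized values, but was called lower with a common median (-3.43), with no scaling (-2.32) and with centring (-1.21).

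Mtch2, the membrane receptor of activated Bid, was higher by 1.62 (11.42 ± 0.32 in Ago2-deficient and 9.80 ± 0.25 in GV oocytes, SD, n = 3, limma, adjusted p = 0.00589), but differed by -1.0 with a common median and by 0.10 with no scaling, neither of them called. Cycs, the cytochrome c gene, differed by -0.24 at its brighter probe (adjusted p = 0.559) and was called lower there with a common median (-3.45), with no scaling (-2.35) and with centring (-1.24). Its dimmer probe, detected on no Ago2-deficient and on all 3 GV arrays, was called at least 7.84-fold lower with an adjusted p = 0.05 that lay just inside the limit (at least 16.4-fold without Ago2-deficient replicate 2 and 4.01-fold without replicate 3), so the 2 probes did not agree. Aifm1, a flavoprotein that leaves dying mitochondria, was lower (log2 difference -4.83, limma, adjusted p = 0.000264) and detected in 1 Ago2-deficient oocyte, replicate 2, without which it was at least 29.5-fold lower. The nuclease gene Endog was at least 4.05-fold lower (adjusted p = 0.00774) and lost its call with centring (-0.58). Htra2, a protease released from mitochondria, differed by 0.29 (adjusted p = 0.467), and was called at 1.49 under cyclic loess and at -1.19 with a common median. Vdac1 and Endog were named after their values were seen. None of the listed caspases with a probe (Casp1, Casp2, Casp4, Casp6 and Casp8) was detected on any array.

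**Figure D4:**
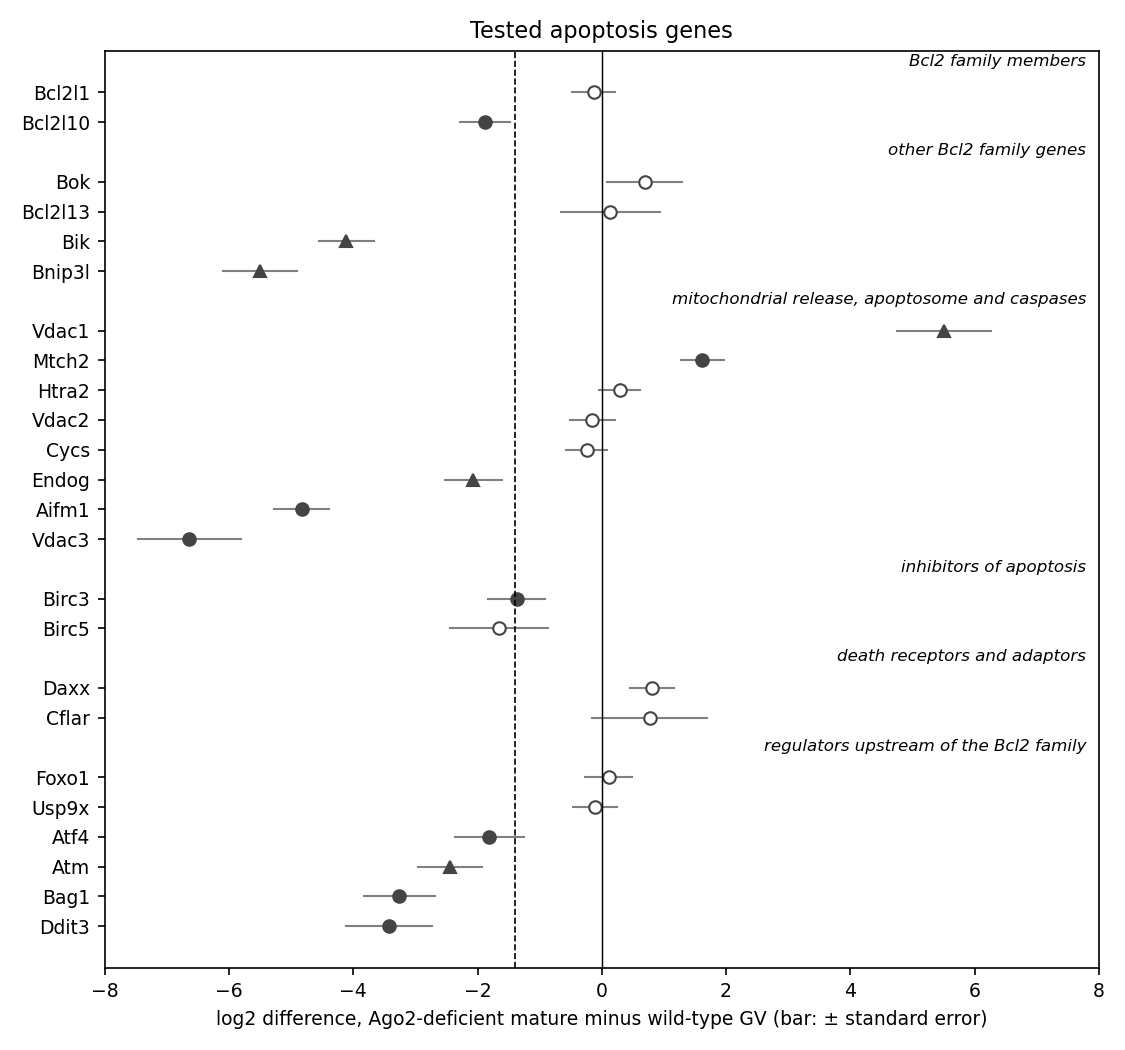
Log2 difference between Ago2-deficient mature and GV oocytes (horizontal axis, positive where Ago2-deficient is the higher) of the 2 tested Bcl2 family genes and the 22 tested genes of 5 apoptosis lists (rows); filled symbols are called, bars are the standard error, triangles, for probes that 1 group nowhere detected, give a fitted value and no bound, and a dashed line at -1.39 marks the median over all tested genes. Vdac1 and Mtch2 are the only filled symbols right of 0, and with a common median Mtch2 moves to -1.0.

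Of the 2 tested genes of the inhibitor of apoptosis family, 1 was lower, beside 44.8% of all tested genes. Birc3, a ubiquitin ligase that restrains death receptor signals, read 13.16, 14.13 and 14.67 in Ago2-deficient and 15.60, 15.27 and 15.20 in GV oocytes, a log2 difference of -1.37 (limma, adjusted p = 0.0361). Its call was lost without any 1 of Ago2-deficient replicate 1 (-0.96), Ago2-deficient replicate 2 (adjusted p = 0.0597) or GV replicate 1, 2 or 3 (0.114, 0.0899 and 0.0833). Birc5, or survivin, which also serves the meiotic spindle, differed by -1.66 and was not called (adjusted p = 0.106), but was called at -2.38 without Ago2-deficient replicate 3, stood at -0.87 without Ago2-deficient replicate 2 (adjusted p = 0.235), and was called at -4.80, -3.70 and -2.59 with a common median, no scaling and centring. On the list of death receptors and adaptors only Daxx and Cflar were tested, and the receptor genes Fas and Tnfrsf1a were not. Daxx differed by 0.81 (limma, adjusted p = 0.0886), without overlap between the groups, and was called at -2.37 with a common median. Cflar, an inhibitor of caspase 8, differed by 0.77 (adjusted p = 0.495), and was called at 1.70 under cyclic loess.

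Of 6 tested regulators upstream of the family, 4 were lower, again beside 44.8% of all tested genes. The stress-response factor gene Ddit3, which can induce Bcl2l11, read 8.04, 10.64 and 10.03 in Ago2-deficient and 12.70, 13.10 and 13.17 in GV oocytes, a log2 difference of -3.42 (limma, adjusted p = 0.00489; -2.66 without Ago2-deficient replicate 1). Atf4, which acts upstream of Ddit3, was lower (log2 difference -1.81, adjusted p = 0.0278), a call lost without Ago2-deficient replicate 3 (adjusted p = 0.0531), GV replicate 1 (0.0643) or GV replicate 3 (0.096). Bag1, a co-chaperone that binds Bcl2, was lower (log2 difference -3.26, adjusted p = 0.00285). It was detected in 1 Ago2-deficient oocyte, replicate 3, without which it was at least 14.6-fold lower. The DNA damage kinase gene Atm was at least 5.43-fold lower (adjusted p = 0.00642) and lost its call with centring (-0.90). The transcription factor gene Foxo1 and Usp9x, whose enzyme stabilizes Mcl1 protein, differed by 0.11 and -0.11 and were not called (adjusted p = 0.808 and 0.805), but with a common median they were called at -2.51 and -3.51 and with no scaling at -1.41 and -2.41, and Usp9x at -1.30 with centring.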

How the data were processed

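Single-oocyte cDNA was transcribed by the authors into DIG-labelled cRNA and hybridized to Applied Biosystems mouse arrays. The deposited signal intensity was not scaled between arrays and came with a deposited S/N score and a flag code, and the authors also deposited quantile-normalized log2 values. Probe symbols came from the platform annotation (14411 probes with 1 symbol, 247 with several, 18354 with none), and 14402 of the gene identifiers were found in the gene table, with 0 symbols changed.

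The log2 values of 8018 probes were fitted with limma 3.58.1 (lmFit and eBayes) in R 4.3.3 and adjusted by Benjamini and Hochberg over these probes. A gene was counted once, by its brightest tested probe. The fit was tested on simulated data. Members, lists and tests were chosen with earlier results of these data known. All members were named, and per list up to 6 tested genes with the highest mean signal. No replicate block was used, since deviations did not pair by replicate number (r = -0.0487, 0.0275 and -0.0339). Alternatives covered scaling, filter, detection limit, variance model, threshold, block and each array left out. The number of arrays limits the precision. Plots used Python 3.11.15 with matplotlib 3.10.9.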

Additional observations from a re-analysis of the deposited data

How the results depend on the processing

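The count of 1 Bcl2 family gene called, lower, became 2 without scaling and with a common median for all arrays, and stayed at 1 lower and 0 higher under every other alternative and without each array. Leaving out an array gave log2 differences of -2.20 to -1.64 for Bcl2l10 and -0.32 to 0.04 for Bcl2l1, positive only without Ago2-deficient replicate 3. With the replicate number as a block, Bcl2l10 stayed called (-1.88, limma, adjusted p = 0.0238), and the block ended the calls of Birc3 (adjusted p = 0.0762) and Atf4 (0.0679), as did ordinary t-statistics (0.0678 and 0.0721) and no filter on dim probes (0.125 and 0.0872), each leaving 2 pathway genes higher and 8 lower. At an S/N of 2 or 5 the number of family genes detected on all 6 arrays was 2, as at 3.

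Of the 12 pathway genes called, 3 were called among the 9 detected on all 6 arrays, 2 lower and 1 higher. With a common median 17 were lower and 1 higher, with no scaling 1 was higher, with cyclic loess 5 were higher, and at an S/N of 5, where fewer genes were tested, 1 was higher. Without each array the count ran from 10 to 13, with 8 to 10 lower and 2 to 3 higher.

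Signs turned in these cases, and the cause was not tested. With a common median Bok differed by -0.80, Bcl2l13 by -0.62, Mtch2 by -1.0, Htra2 by -1.19, Daxx by -2.37, Cflar by -0.84 and Foxo1 by -2.51. With no scaling Htra2 differed by -0.09, Daxx by -1.26 and Foxo1 by -1.41, with centring Daxx by -0.15 and Foxo1 by -0.30, with cyclic loess Vdac2 by 0.34 and Usp9x by 0.22, and with array weights Vdac2 by 0.01 and Foxo1 by -0.01. Over the fits that left out an array, Bcl2l13 ran from -0.61 to 0.93, Vdac2 from -0.28 to 0.10, Cflar from -0.23 to 1.71, Foxo1 from -0.16 to 0.31 and Usp9x from -0.27 to 0.08.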
